A study of Mus musculus with 9 samples.

Results

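Expression of 9 genes that remodel the extracellular matrix was followed in the gastrocnemius, a muscle of the calf, of female mice. The 9 genes were chosen by name, as the rows of the count table for the metalloproteinases Mmp2, Mmp9 and Mmp14, the tissue inhibitors Timp1, Timp2 and Timp3 and the lysyl oxidases Lox, Loxl1 and Loxl2, among 56791 genes in all. All 9 rows were present and all 9 passed the filter on low counts, which kept 17534 genes. Libraries came from young mice given saline vehicle (titles with 3M), aged mice given saline vehicle (titles with 23M) and aged mice given ginkgolide B (GB) at 12 mg per kg body weight, with 3 libraries in each group. All mice were gavaged daily for 2 months, so the handling was shared by every group. The titles of the GB libraries hold no age value, and the strain is not given in the sources used here. GB is a terpene lactone of Ginkgo biloba that blocks the receptor of platelet activating factor.

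Matrix metalloproteinases are zinc enzymes, made as inactive precursors, that cut collagens and other proteins around muscle fibres. Tissue inhibitors of metalloproteinases (TIMPs) bind the active enzymes and block them, and Timp2 also docks the Mmp2 precursor to the membrane enzyme Mmp14, which activates it. Lysyl oxidases are copper enzymes that oxidise lysines of collagen and elastin, the step that starts their crosslinking. In skeletal muscle much of this matrix is laid down by fibroblasts and related stromal cells between the fibres.

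The TIMP family is shown by its upstream sequences because its genes differed in direction with GB. Timp2 and Timp3 fell against aged vehicle, while Timp4, outside the 9 genes, rose in a call that depended on the setting. RefSeq's promoter table (build GRCm38.p6) held 4 of the 9 genes, namely Timp1, Timp2, Timp3 and Mmp14, and also held Timp4, the remaining TIMP gene. Each line gives the 250 bases before the annotated start, 5′ to 3′ on the gene's strand, with a GC box (GGGCGG on either strand) in capitals.
Timp1 (GRCm38.p6, chrX:20869916-20870165, plus strand): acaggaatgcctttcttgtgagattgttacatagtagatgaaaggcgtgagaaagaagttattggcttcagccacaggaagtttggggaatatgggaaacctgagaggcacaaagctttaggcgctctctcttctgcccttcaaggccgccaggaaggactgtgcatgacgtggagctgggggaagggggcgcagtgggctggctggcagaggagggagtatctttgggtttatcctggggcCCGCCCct
Timp2 (GRCm38.p6, chr11:118355412-118355661, minus strand): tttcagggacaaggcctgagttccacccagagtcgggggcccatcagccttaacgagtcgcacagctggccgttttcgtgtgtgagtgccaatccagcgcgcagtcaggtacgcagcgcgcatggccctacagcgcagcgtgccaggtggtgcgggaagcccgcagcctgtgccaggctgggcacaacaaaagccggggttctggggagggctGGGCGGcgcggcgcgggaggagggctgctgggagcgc
Timp3 (GRCm38.p6, chr10:86300162-86300411, plus strand): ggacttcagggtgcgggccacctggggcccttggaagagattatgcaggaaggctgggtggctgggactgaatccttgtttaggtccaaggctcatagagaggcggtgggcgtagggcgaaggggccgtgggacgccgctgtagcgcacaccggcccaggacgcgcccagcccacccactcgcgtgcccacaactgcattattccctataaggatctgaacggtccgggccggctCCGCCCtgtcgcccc
Timp4 (GRCm38.p6, chr6:115252206-115252455, minus strand): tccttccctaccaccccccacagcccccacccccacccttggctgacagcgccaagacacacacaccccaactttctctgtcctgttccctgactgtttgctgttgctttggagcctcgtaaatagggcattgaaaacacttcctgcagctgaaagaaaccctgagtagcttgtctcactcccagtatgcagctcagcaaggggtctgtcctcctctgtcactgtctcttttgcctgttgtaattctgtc
A GC box was found in the windows of Timp1, Timp2 and Timp3 and not in that of Timp4, and 32.7% of 32851 promoter windows of this length held it. The TATA box (TATAAA, either strand) and the AP-1 motif (TGANTCA, which reads alike on both strands) were not matched in these 4 windows and were present in 12.4% and 6.75% of all windows. G and C made up 65.6% of the Timp3 window, 68% of the Timp2 window, 54.4% of the Timp1 window and 53.6% of the Timp4 window, against a median of 52.4% over all windows. These matches describe letters in the windows and were not tied to the expression values.

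Libraries held 39478427 to 61680520 counts in total, with the GB libraries at 39478427 to 44294097. The 9 genes together took 0.0383 to 0.0490% of all counts under vehicle (6 libraries) and 0.0102 to 0.0127% with GB. The GB libraries stood apart in other ways: mitochondrially encoded genes took 24.3 to 26.1% of counts, against 8.599 to 15.3% with vehicle, and 18678 to 19362 genes had a count, against 22616 to 24185. Changes with GB also followed gene length, with a median log2 fold change of 1.06 for genes of up to 500 bases and -0.67 for genes over 8000 bases in the length column. No batch is labelled, and treatment and library preparation cannot be told apart for the GB libraries. Young vehicle replicate 1 stood apart within its group: B cell markers summed to 101 CPM, the usual read count relative to library size, here scaled with TMM factors, there and to 0.936 to 2.77 CPM in the other 8 libraries, and tendon markers to 367 CPM against 658 and 661 CPM in young replicates 2 and 3. In bulk tissue, fewer cells of a type and less RNA per cell cannot be told apart.

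Per kilobase of gene length, Timp2 was the most abundant of the 9 genes in each group. It stood at 40.2 ± 7.75 CPM per kilobase in young vehicle, 35.0 ± 0.820 in aged vehicle and 21.8 ± 1.77 in GB libraries (SD, n = 3). In young muscle Mmp2 came next at 13.1 ± 1.32, followed by Timp3 at 9.49 ± 2.13 and Loxl1 at 9.38 ± 2.07, and neighbours among these 3 overlapped between libraries. In aged muscle Timp3 took the second place at 21.1 ± 4.18, above Mmp2 at 10.7 ± 0.364 CPM per kilobase, with no overlap. In GB libraries Timp3 stood sixth at 1.22 ± 0.149 CPM per kilobase, with a range that overlapped those of Mmp14 above it and Timp1 below it. Mmp9 and Timp1 were the least abundant in young and aged vehicle muscle, at 0.573 to 1.07 CPM per kilobase. Mmp9 and Loxl2 had the lowest means with GB, at 0.561 ± 0.169 and 0.559 ± 0.00733. The range of Timp1 with GB, at 0.216 to 2.08, overlapped both.

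**Figure D1:**
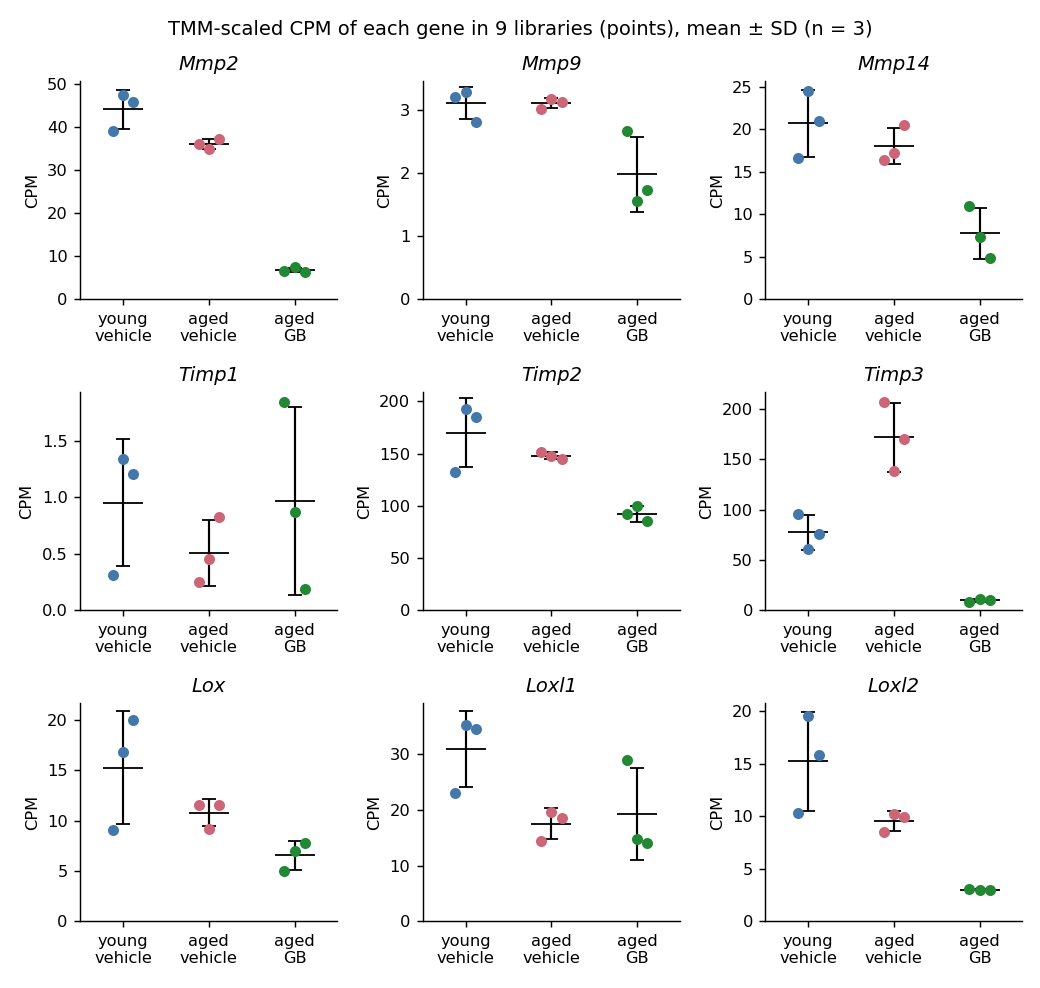
TMM-scaled CPM (vertical axes, linear from 0) of the 9 genes in the 3 groups of 3 libraries; points are libraries in order of replicate number, bars are mean ± SD. Timp3 is high in the aged vehicle libraries, at 138 to 207 CPM, and low in the GB libraries, at 8.68 to 11.1 CPM.

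The first comparison of the study's design set aged against young muscle, both given vehicle. Timp3 was higher in aged muscle by 2.22-fold (95% confidence interval 1.70 to 2.91), and it was the only one of the 9 genes called by edgeR's quasi-likelihood test at an adjusted p under 0.05. Over all genes tested 8.6% were called, 4.32% higher and 4.28% lower. The median log2 fold change of the 9 genes was -0.29, against -0.0022 over all genes tested. Besides Timp3, 5 of the other 8 genes overlapped between the groups, and Mmp2, Loxl1 and Loxl2 were lower in every aged library than in every young one. Over all genes tested 34.4% did not overlap between these groups, 17.5% higher and 16.9% lower.

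Timp3, a TIMP that stays bound to the matrix and also blocks several ADAM and ADAMTS proteases, was at 95.4, 60.8 and 75.7 CPM in young vehicle replicates 1, 2 and 3. It was at 207, 138 and 170 CPM in aged vehicle replicates 1, 2 and 3. The lowest aged library was above the highest young library. The log2 fold change was 1.15 (SE 0.18, edgeR adjusted p = 0.00258), and the gene was called under all 20 alternatives tried, with log2 fold changes of 1.00 to 1.33. Endothelial markers summed to 697 to 739 CPM in aged and 483 to 504 CPM in young vehicle libraries, and smooth muscle and pericyte markers to 1071 to 1136 and 686 to 726 CPM. Of 10 markers each, 3 of endothelium and 5 of smooth muscle and pericytes were higher with age and 0 lower. Over all genes tested 4.32% were higher and 4.28% lower. The part of these cell types in the Timp3 difference was not tested.

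The other TIMP members were not called with age. Timp2 was at 132, 193 and 185 CPM in young muscle and 152, 148 and 145 CPM in aged muscle under vehicle, and the log2 fold change was -0.20 (95% confidence interval -0.47 to 0.07). The aged values lay close together, between the low young replicate 1 and the higher young replicates 2 and 3. Timp1, a soluble inhibitor induced by injury in many tissues, had 6 to 84 counts per library over all 9 libraries. It was at 0.310, 1.34 and 1.21 CPM in young muscle and 0.246, 0.458 and 0.821 CPM in aged muscle under vehicle, with an interval of the log2 fold change from -2.52 to 0.73. The Timp1 counts spread widely within each group, at 21, 77 and 84 in young and 14, 29 and 50 in aged vehicle libraries.

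Each of the 3 lysyl oxidases had a lower mean in aged than in young vehicle muscle, but none was called. Loxl1, which acts on elastin, was at 23.05, 35.2 and 34.6 CPM in young muscle and 14.4, 19.7 and 18.5 CPM in aged muscle under vehicle. All young libraries were above all aged ones (log2 fold change -0.82, SE 0.28, edgeR adjusted p = 0.104). Loxl2, which acts on collagens of basement membranes among others, was at 10.3, 19.6 and 15.8 CPM in young muscle and 8.53, 10.3 and 9.90 CPM in aged muscle under vehicle. The lowest young library was only just above the highest aged one (log2 fold change -0.67, SE 0.20, edgeR adjusted p = 0.0601). Lox, the founding member of the family, was at 9.10, 16.8 and 19.9 CPM in young muscle and 11.6, 9.22 and 11.6 CPM in aged muscle under vehicle, and the groups overlapped (log2 fold change -0.50, interval -1.06 to 0.06).

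Young vehicle replicate 1, the library with B cell markers and less of the tendon markers, was the lowest of its group for Mmp2, Mmp14, Timp1, Timp2 and all 3 lysyl oxidases. Without it 5 of the 9 genes were called by edgeR, and 1456 of all genes tested, against 1508 with all libraries. Timp3 was higher, and Timp2 (log2 fold change -0.35, adjusted p = 0.0347), Lox (-0.77, 0.0274), Loxl1 (-0.99, 0.0486) and Loxl2 (-0.89, 0.00477) were lower. Without aged GB replicate 1, which enters through the shared estimate of spread, 2 of the 9 genes were called, Timp3 and Loxl1 (adjusted p = 0.0121 for Loxl1). In that fit 2010 of all genes tested were called. Tendon markers summed to 221 to 335 CPM in aged and 367 to 661 CPM in young vehicle libraries, without overlap. Of 10 tendon markers 4 were lower and 0 higher with age, against 4.28% lower and 4.32% higher over all genes tested. The part of the B cell or tendon RNA in the values of the 9 genes was not tested.

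Among the metalloproteinases, no gene was called with age. Mmp2, a gelatinase that cuts denatured collagen and basement membrane, was at 39.1, 47.4 and 46.0 CPM in young muscle and 36.1, 34.9 and 37.3 CPM in aged muscle under vehicle. The groups did not overlap, and the difference was small (log2 fold change -0.29, SE 0.10, edgeR adjusted p = 0.104). Mmp14, the membrane-bound activator of Mmp2, was at 16.6, 24.5 and 21.0 CPM in young muscle and 16.4, 17.2 and 20.4 CPM in aged muscle under vehicle, with an interval from -0.72 to 0.32. Mmp9, the gelatinase made by neutrophils and macrophages, was at 2.82 to 3.30 CPM in the 6 vehicle libraries, with overlapping groups and an interval from -0.53 to 0.54.

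**Figure D2:**
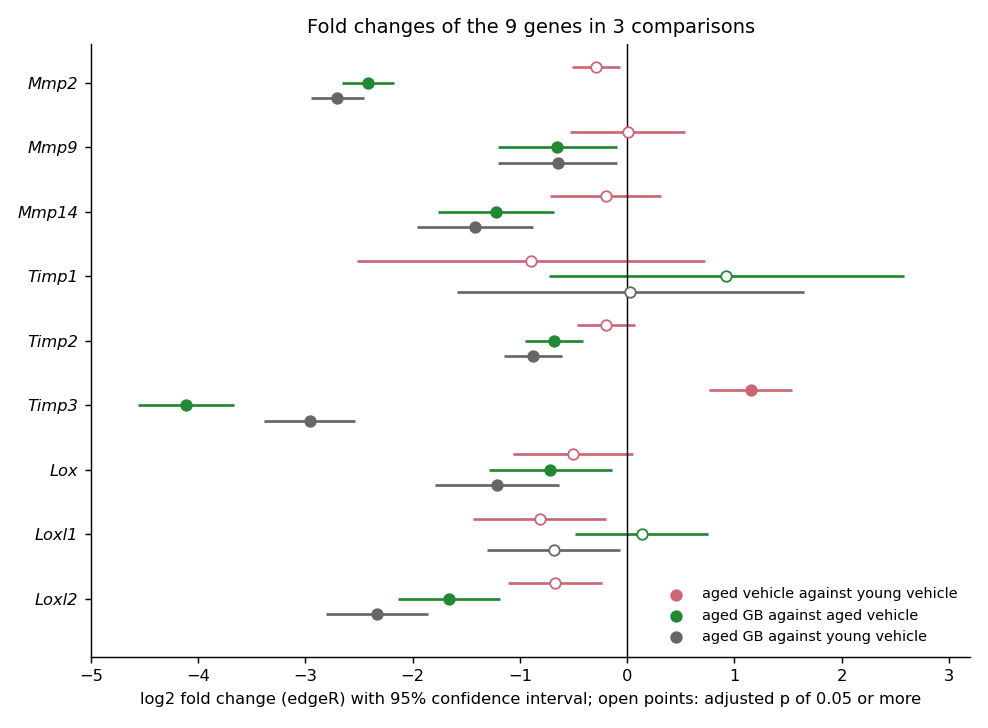
Log2 fold change (horizontal axis) of the 9 genes with its 95% confidence interval in 3 comparisons; filled points have an edgeR adjusted p under 0.05 and open points do not. Timp3 lies to the right of 0 for aged against young vehicle, at 1.15, and at -4.11 for GB against aged vehicle. The comparisons share groups and are not independent.

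The second comparison of the design set GB-treated against vehicle-treated aged muscle. Of the 9 genes 7 fell with GB and 0 rose, led by Timp3, which was 17.3-fold lower, Mmp2, which was 5.32-fold lower, and Loxl2, which was 3.17-fold lower. All 3 metalloproteinases fell, as did Timp2, Timp3, Lox and Loxl2. Over all genes tested edgeR called 53.2%, of which the lower genes were 28.8% and the higher genes 24.4% of those tested. The 9 genes had a median log2 fold change of -0.72, and all genes tested one of -0.05. Groups did not overlap for these 7 genes, all lower with GB, while over all genes tested 59.7% did not overlap, 27.3% higher and 32.5% lower. With library totals in place of TMM factors the median of all genes moved to -0.62, so directions are given relative to the TMM scale. The 5 genes Mmp2, Mmp14, Timp2, Timp3 and Loxl2 were called under all 20 alternatives tried, while the calls of Mmp9 and Lox depended on the setting.

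Timp3 was at 8.68, 11.1 and 9.98 CPM in GB replicates 1, 2 and 3, against 138 to 207 CPM in aged vehicle libraries. The highest GB library lay far below the lowest aged vehicle library. The log2 fold change was -4.11 (SE 0.20, edgeR adjusted p = 2.64e-08). Timp3 is the longest of the 9 genes in the length column, at 8144 bases, and with an offset for each library's trend on gene length its log2 fold change was -3.64. Timp3 lies inside Syn3 on the opposite strand, and the use of strand in counting is not given in the sources used here. Syn3 had 5 to 83 counts per library and Timp3 had 273 to 11742.

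Timp2 fell by 0.68 on the log2 scale (SE 0.12, edgeR adjusted p = 0.000551), from 145 to 152 CPM in aged vehicle libraries to 92.1, 100.2 and 85.2 CPM with GB. All GB libraries were below all aged vehicle libraries. Timp1 was at 1.84, 0.870 and 0.192 CPM in GB replicates 1, 2 and 3 and was not called, with an interval of the log2 fold change from -0.73 to 2.58. The GB libraries spread over a wider range than either vehicle group. Timp1 lies inside Syn1 on the opposite strand, and Syn1 had 0 to 19 counts per library. Cep295nl, inside Timp2 and chosen after its values were seen, had 0 to 34 counts.

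Mmp2 was at 6.52, 7.38 and 6.43 CPM in GB libraries, against 34.9 to 37.3 CPM in aged vehicle libraries, with log2 fold change -2.41 (SE 0.11, edgeR adjusted p = 4.93e-09). The GB values lay close together and far under the others. Mmp14 was at 10.9, 7.35 and 4.89 CPM with GB, all below the lowest aged vehicle library at 16.4 CPM (log2 fold change -1.22, SE 0.25, adjusted p = 0.00141). Mmp9 was at 2.67, 1.56 and 1.73 CPM with GB and 3.03 to 3.19 CPM in aged vehicle libraries. Its call was near the threshold (log2 fold change -0.65, adjusted p = 0.0472) and was lost in 14 of 20 alternatives, with adjusted p of 0.0017 to 0.132. Among these were the fits without young replicate 1, 2 or 3 (adjusted p = 0.057, 0.0682 and 0.0648), aged replicate 1, 2 or 3 (0.0731, 0.105 and 0.1) or GB replicate 2 or 3 (0.132 and 0.111).

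Neutrophil markers were close to the detection limit beside Mmp9. The 10 markers summed to 1.23 to 5.31 CPM in GB libraries, 2.78 to 3.89 CPM in aged vehicle and 1.45 to 7.48 CPM in young vehicle libraries, and the groups overlapped. Ly6g had no count in any library and Mpo had none in aged vehicle or GB libraries. Elane, Camp, Ngp and Ltf had no count in any GB library but had some in each vehicle group. The 4 neutrophil markers that passed the filter were not called between GB and aged vehicle. Macrophage markers summed to 129 to 134 CPM with GB and 158 to 168 CPM in aged vehicle libraries. Of these, 1 of 10 was higher and 5 were lower, against 24.4% higher and 28.8% lower over all genes tested. The part of neutrophils or macrophages in the Mmp9 difference was not tested.

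Loxl2 was at 3.05, 3.03 and 2.97 CPM in the GB libraries, against 8.53 to 10.3 CPM in aged vehicle libraries (log2 fold change -1.66, SE 0.22, edgeR adjusted p = 3.49e-05). The 3 GB values were nearly equal. Lox was at 4.96, 6.96 and 7.77 CPM with GB and 9.22 to 11.6 CPM in aged vehicle libraries (log2 fold change -0.72, SE 0.26, adjusted p = 0.0384). The groups did not overlap, but the Lox call was lost in 8 of 20 alternatives, with adjusted p of 0.000767 to 0.141. These included the fits without aged replicate 1 or 3 (adjusted p = 0.0925 and 0.0971) or GB replicate 1 or 2 (0.141 and 0.0759) and the fit with the length offset (0.0874). Loxl1 was at 28.9, 14.8 and 14.1 CPM with GB and was not called (log2 fold change 0.13, interval -0.49 to 0.76). GB replicate 1 was above every aged vehicle library, and without it the log2 fold change was -0.29 (adjusted p = 0.24).

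Markers of stromal cells were read beside all genes tested, of which 24.4% rose and 28.8% fell with GB. Of 10 fibroblast markers 3 rose and 4 fell, shares not far from those. They summed to 1705 to 2011 CPM with GB and 1978 to 2176 CPM in aged vehicle libraries, and the groups overlapped. Of 10 tendon markers 1 rose and 7 fell, with sums of 72.0 to 126 CPM and 221 to 335 CPM. Smooth muscle and pericyte markers summed to 586 to 665 CPM with GB and 1071 to 1136 CPM in aged vehicle libraries, and endothelial markers to 408 to 495 CPM and 697 to 739 CPM. GB left 1 higher and 7 lower of the 10 smooth muscle and pericyte markers, and 2 higher and 6 lower of the 10 endothelial ones. Osteoclast and bone markers, of which Alpl was the most abundant, summed to 22.8 to 30.2 CPM with GB and 34.01 to 44.5 CPM in aged vehicle libraries. Only 5 of these 10 were tested, of which 1 rose and 1 fell, with a median log2 fold change of 0.08. Of the 10, 4 had no count in any GB library and 1 had none in any aged vehicle library. Myofibre genes summed to 181544 to 212516 CPM with GB, above 119442 to 132745 CPM in aged vehicle libraries. The part of these shifts in the falls of the 9 genes was not tested.

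One more comparison, not in the study's design text, set GB-treated aged against young vehicle muscle and shares its libraries with both others. Of the 9 genes 7 were called lower and 0 higher, and over all genes tested edgeR called 53.6%, with 29% lower and 24.7% higher. The groups did not overlap for these 7 genes, against 60.7% of all genes tested, 27.5% higher and 33.2% lower. Timp3 was 7.79-fold, Mmp2 6.51-fold and Loxl2 5.04-fold lower with GB than in young muscle. Mmp14 and Lox were 2.68-fold and 2.33-fold lower, and Timp2 was 1.84-fold lower. These 6 genes were called under all 20 alternatives. Mmp9 was 1.57-fold lower (adjusted p = 0.0476), a call lost in 14 of 20 alternatives, among them the fits without young replicate 1, 2 or 3, aged replicate 1, 2 or 3, or GB replicate 2 or 3 (adjusted p of 0.0548 to 0.132). Loxl1 was not called (log2 fold change -0.68, interval -1.30 to -0.06, adjusted p = 0.0613), and it was called without young replicate 1 (adjusted p = 0.0215) or GB replicate 1 (0.000792). Timp1 was not called, with an interval from -1.59 to 1.65.

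The balance of Mmp2 to its inhibitor and docking partner Timp2 was read as a ratio of counts per kilobase within each library, which does not depend on the scaling between libraries. Mmp2 stood at 0.371, 0.309 and 0.312 of the Timp2 level in young and 0.299, 0.296 and 0.324 in aged vehicle libraries. It stood at 0.0889, 0.0926 and 0.0948 in GB libraries, below every vehicle library. The difference in mean log2 ratio was -1.73 between GB and aged vehicle libraries and -1.84 between GB and young vehicle libraries, each with an exact two-sided permutation p = 0.1, the smallest that 3 libraries against 3 allow. Between aged and young vehicle libraries it was -0.11 (exact permutation p = 0.4). The Mmp14 to Timp2 ratio overlapped between GB and aged vehicle libraries, with GB replicate 1 at a log2 ratio of -3.57 beside -3.70 to -3.32. The log2 ratio of Loxl2 to Lox was -0.88, -1.38 and -1.56 with GB, below all 6 vehicle libraries at -0.62 to 0.05.

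**Figure D3:**
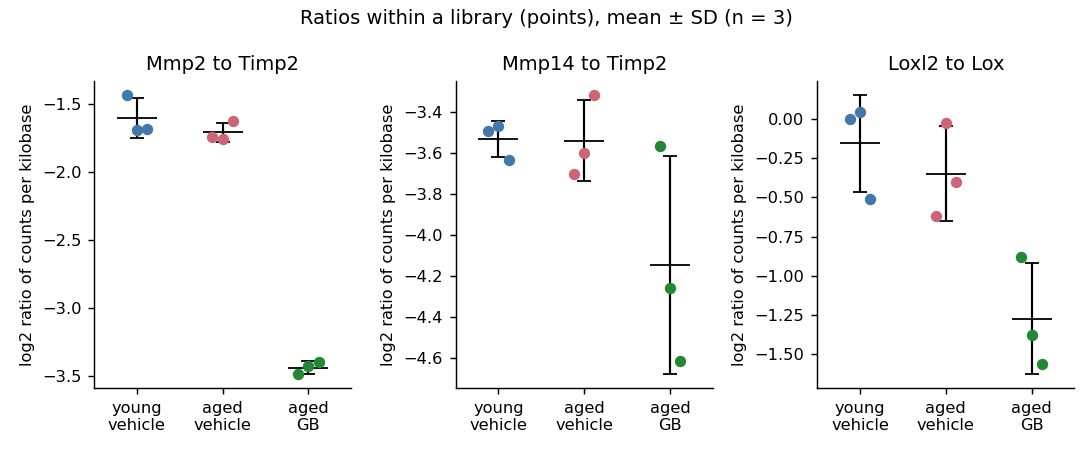
Log2 ratio of counts per kilobase (vertical axes) of Mmp2 to Timp2, Mmp14 to Timp2 and Loxl2 to Lox within each of the 9 libraries; points are libraries and bars are mean ± SD (n = 3). The Mmp2 to Timp2 ratio is lower in the 3 GB libraries, at -3.49 to -3.40, than in the vehicle libraries, at -1.75 to -1.43.

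The remaining TIMP gene, Timp4, which is abundant in heart and skeletal muscle, had a different pattern from Timp3. It was at 24.8, 11.2 and 11.4 CPM in young muscle, 40.1, 59.8 and 56.0 CPM in aged muscle under vehicle and 106, 102 and 87.9 CPM in GB libraries. The 3 groups did not overlap. With age it rose by 1.72 on the log2 scale (SE 0.31, edgeR adjusted p = 0.012), a call lost with only the 2 groups compared (adjusted p = 0.0503). With GB it rose by 0.93 (SE 0.30, adjusted p = 0.0307) over aged vehicle, a call lost in 7 of 20 alternatives (adjusted p of 9.22e-05 to 0.381). These were library totals (log2 fold change 0.35, adjusted p = 0.381), no filter on low counts (0.128), and the fits without aged replicate 1 or 3 (0.098 and 0.067) or GB replicate 1, 2 or 3 (0.112, 0.0712 and 0.0564). Timp4 overlaps Syn2 on the opposite strand, which had 20 to 147 counts per library.

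The makeup of the TIMP family was read as shares, which were drawn up after the values were seen. Timp2 gave 74.7 ± 7.88% of the family's summed CPM per kilobase in young, 53.5 ± 2.01% in aged vehicle and 53.5 ± 2.41% in GB libraries (SD, n = 3). Timp3 gave 13.2 to 24.6% in young, 27.2 to 37.2% in aged vehicle and 2.49 to 3.36% in GB libraries. Timp4 gave 3.38 to 8.84% in young muscle, 9.97 to 16.2% in aged muscle under vehicle and 40.0 to 42.0% with GB. No library of one group overlapped another for Timp3 or Timp4. The summed level of the family was 47.5 to 56.4 CPM per kilobase in young, 62.6 to 68.2 in aged vehicle and 36.5 to 43.3 in GB libraries. With the length offset Timp4 gave a mean of 43.8% in the GB libraries, against 41.0% without it.

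**Figure D4:**
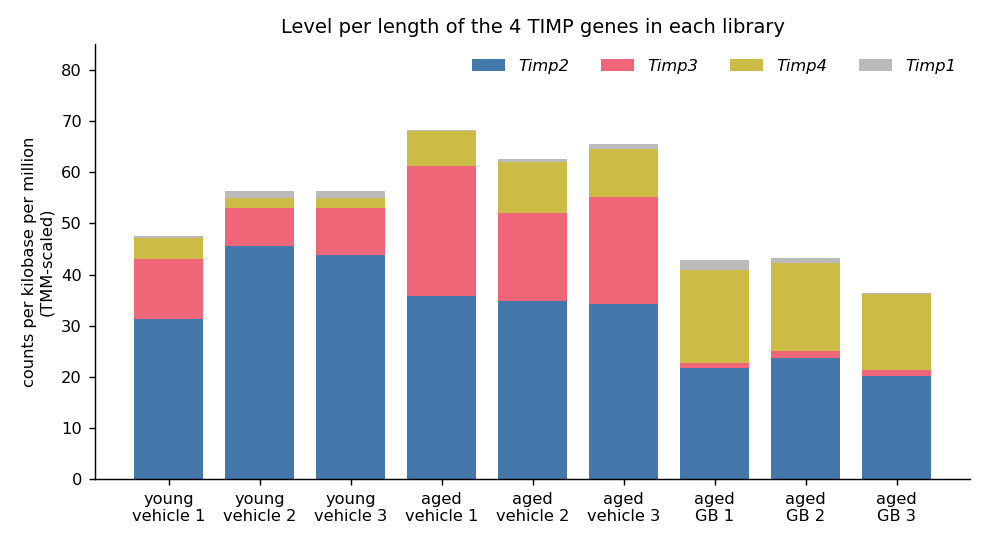
Summed level of the 4 TIMP genes in each of the 9 libraries (stacked bars from 0, TMM-scaled counts per kilobase (CPM per kilobase)). Timp3 gives 27.2 to 37.2% of the bar in aged vehicle and 2.49 to 3.36% in GB libraries, where Timp4 gives 40.0 to 42.0%.

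Other genes of matrix turnover were read from lists by role, to be set against all genes tested, of which 4.32% were called higher and 4.28% lower with age and 24.4% higher and 28.8% lower with GB against aged vehicle. Among 9 further metalloproteinases tested, 1 was lower with age and 3 were lower with GB, the latter a share near that of all genes, and 0 rose in either comparison. The gene that fell with age was Mmp15, a membrane-type enzyme, at 41.5 CPM in young muscle and 24.2 CPM in aged muscle under vehicle on average (log2 fold change -0.78, SE 0.12, edgeR adjusted p = 0.00234). With GB the 3 that fell were Mmp28 at -1.51 (SE 0.33), Mmp19 at -1.01 (SE 0.34) and Mmp15 at -0.72 (SE 0.13). The Mmp19 call was lost without aged replicate 3 (edgeR adjusted p = 0.0767) or GB replicate 1 (0.0612). Of 18 ADAM and ADAMTS proteases, only some of which Timp3 can block, 2 were higher and 1 was lower with age, while GB left 2 higher and 10 lower. The list's median log2 fold change with GB was -0.96, against -0.05 over all genes tested. With age Adamts9 rose by 1.14 (SE 0.26) and Adam15 by 0.52 (SE 0.14), calls lost in 2 and 7 of 20 alternatives, and Adamts20 fell by 1.64 (SE 0.32). With GB Adamts12 fell by 2.18 (SE 0.36) and Adam19 fell by 2.004 (SE 0.30) on the log2 scale.

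Of 14 tested protease inhibitors and activators, 1 was higher with age, Timp4, and 2 were lower, Furin and Bsg. Over all genes tested 4.32% were higher and 4.28% lower with age. GB left 3 of the 14 higher and 4 lower, shares near the 24.4% higher and 28.8% lower of all genes tested. Bsg, a membrane protein also known as a metalloproteinase inducer, fell with age by 0.27 (SE 0.07, edgeR adjusted p = 0.0434, lost in 10 of 20 alternatives) and rose with GB by 1.53 (SE 0.08). Furin, a convertase that activates the Mmp14 precursor, fell with GB from 48.6 ± 6.15 to 22.7 ± 1.33 CPM (log2 fold change -1.10, edgeR adjusted p = 3.59e-06). Its fall with age (-0.44, adjusted p = 0.0256) was lost in 5 of 20 alternatives, among them the fits without any one of young replicates 2 and 3 and aged replicates 2 and 3 (0.0965, 0.109, 0.115 and 0.109). Reck, a membrane-anchored inhibitor of metalloproteinases, was at 5.38 to 8.62 CPM in aged vehicle and 4.196 to 4.47 CPM in GB libraries. It fell with GB by 0.65 (adjusted p = 0.0225), a call lost without aged replicate 3 (adjusted p = 0.121), with limma-voom (0.0588) and with the length offset (0.0616). Plaur, the urokinase receptor, fell by 1.88 (SE 0.43) on the log2 scale.

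Of 23 genes of collagen processing and crosslinking, 0 were higher and 1 was lower with age, against 4.32% and 4.28% of all genes tested. The lower gene was Plod3, a lysyl hydroxylase, at -0.39 (edgeR adjusted p = 0.0451, lost in 10 of 20 alternatives). With GB 5 were higher and 5 lower, against 24.4% higher and 28.8% lower over all genes tested. The list's median log2 fold change with GB was -0.14, against -0.05 over all genes tested. Colgalt1, which adds galactose to collagen, fell by 1.86 with GB (SE 0.11, edgeR adjusted p = 4.4e-08). Among the other lysyl oxidases, Loxl4 had 40 to 197 counts in vehicle and 0 to 14 counts in GB libraries, with adjusted p = 0.00989 for GB against aged vehicle. Loxl3 was at 3.55 to 6.21 CPM in all 9 libraries and was not called in any comparison, except against young vehicle with library totals (adjusted p = 0.0144). The crosslinking transglutaminase Tgm2 was at 57.5 to 82.9 CPM in aged vehicle and 66.5 to 75.9 CPM in GB libraries and was not called between them. Without aged replicate 1 it was called higher with GB (log2 fold change 0.30, edgeR adjusted p = 0.0258). With library totals it was called lower with GB (-0.44, 0.0102). Against young vehicle it was higher by 0.41 (adjusted p = 0.0211), a call lost without young replicate 2 or 3 (0.0777 and 0.0764) or GB replicate 1 or 3 (0.068 and 0.0597).

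Among 15 substrates and elastic fibre genes, 5 were lower and 0 higher with age, against 4.28% lower and 4.32% higher over all genes tested. GB left 8 lower and 2 higher, against 28.8% lower and 24.4% higher over all genes tested. The median log2 fold change of the list was -0.58 with age and -0.90 with GB, against -0.0022 and -0.05 over all genes tested. The largest age difference among them was that of Col1a1, which encodes a chain of fibrillar collagen I, at -2.49 (SE 0.56, edgeR adjusted p = 0.0423). That call was lost in 10 of 20 alternatives, among them the fits without young replicate 2 or 3, aged replicate 1, 2 or 3, or GB replicate 2 or 3 (adjusted p of 0.0605 to 0.138). With GB the largest fall was that of Fbn1, the main protein of microfibrils, at -1.88 (SE 0.23, adjusted p = 5.46e-05).

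For each of the 8 members with a mean of at least 2 CPM, the genes with the most similar pattern were found as those with the smallest root mean square difference of centred log2 CPM over the 9 libraries, among 10966 candidates. Fam20b and Taf6 were nearest to Mmp2 (0.098 and 0.12), Coro1b and Dnaaf5 to Mmp9 (0.087 and 0.088), and Olfml2b and Antxr1 to Mmp14 (0.15 and 0.17). Cnot6l and Map3k20 were nearest to Timp2 (0.083 and 0.10). For Timp3, Pik3c2a stood at 0.17 and Notch1 followed at 0.36. Pik3c2a was at 5.96, 15.1 and 0.911 CPM on average in the young, aged vehicle and GB groups, high with age and low with GB as Timp3 was. Rc3h1 and Acaca were nearest to Lox (0.17 and 0.18) and Fcrls and St6galnac4 to Loxl1 (0.18 and 0.21). Ahdc1 and Fbn1 were nearest to Loxl2 (0.15 and 0.17). Among the 9 genes themselves the most similar pair was Mmp9 and Timp2 (0.28), closely followed by Timp2 and Lox (0.28). These distances describe 9 libraries in 3 groups and share their scaling.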

How the data were processed

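RNA was extracted with TRIzol and libraries were made with a KAPA mRNA kit, per the labels' protocols. The deposited table gives raw counts per gene as whole numbers, with a gene length. HISAT2, SAMtools, FastQC and DESeq2 and the builds mm10 and GRCm39 stand in the submitters' processing notes. What counted the reads, against which annotation and with which strand setting, is not given in the sources used here. Groups and replicate numbers came from the titles; nothing in the labels states separate animals, so p-values reflect the spread among these libraries, which may be technical. Replicate pairs differed by more than sampling noise.

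Counts were fitted with edgeR 4.0.16 (R 4.3.3): filterByExpr with a minimum count of 10 and a minimum total of 15, TMM factors, 1 robust quasi-likelihood model over the 9 libraries with a mean per group, two-sided tests, Benjamini-Hochberg adjustment over 17534 genes and calls at adjusted p under 0.05. The SE is the log2 fold change divided by the root of F, and confidence intervals (95%) used the fit's degrees of freedom. The 20 alternatives were other scalings and filters, DESeq2 1.42.0, limma-voom (limma 3.58.1) and robust=FALSE. They also took in only the groups compared, the replicate block, a length offset (lowess, span 0.3) and each library left out. A threshold of 0.01 was applied to the numbers of genes called but is not among the 20 alternatives for single genes. Calls with an adjusted p of 0.01 to 0.05 would be lost at it. The fit was tested on simulated data, where it missed the criterion set at the start for the share of changed genes recovered. The criterion was then limited to genes of low dispersion, and was met there. The simulation was scored only for aged against young vehicle, with few genes changed, so it does not bear on errors in the GB comparisons. The replicate numbers do not pair the samples by any label.

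The members and gene lists were chosen with earlier results of these data known. Named genes were the members, Syn1, Syn3, Timp4, Reck, Loxl3, Loxl4, Furin and Tgm2, the called genes with the largest change in each pathway list whose mean reached 2 CPM in either group (up to 3 each, of which the largest are printed), the most similar genes, and the highest and absent markers. Lists were described by counts, with no set test.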

Additional observations from a re-analysis of the deposited data

How the results depend on the processing

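Over 20 alternatives, the 27 fold changes of the members kept their direction and side of the threshold in 472 of 540 cases, lost the call in 36, gained it in 17 and changed sign in 15. Members called with age numbered 1, and 2 with no filter, with limma-voom or with only the 2 groups compared, 3 with DESeq2, and 1 to 5 with single libraries left out. All genes called with age numbered 1508, 2400 with DESeq2, 650 at a threshold of 0.01, and 749 to 2010 without single libraries. For GB the number of members called stayed at 5 to 7 against aged and 6 to 8 against young vehicle. The Mmp2 to Timp2 log2 ratio differed by -1.89 and -1.99 with the length offset, against -1.73 and -1.84 without it.

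Signs changed as follows. For Mmp9 with age the values were -0.041 with upper-quartile factors and ranged from -0.064 to 0.038 without single libraries (-0.013 and -0.00098 without aged replicate 2 or 3). For Timp1 they were -0.052 with the length offset (GB against aged vehicle) and, against young vehicle, -0.50 with library totals, -0.039 with no filter, -0.16 with limma-voom, -0.95 with the length offset, -0.40 without young replicate 1 and -0.84 to 0.51 without single libraries. For Loxl1 (GB against aged vehicle) they were -0.43 with library totals, -7.8e-05 with the length offset, -0.00066 without aged replicate 1 and -0.29 to 0.31 without single libraries. Library totals gave Loxl3 -0.40 and Tgm2 -0.44 against aged vehicle and Tgm2 -0.15 against young vehicle. Tgm2 was then called lower than in aged vehicle (adjusted p = 0.0102). Loxl3 ranged from -0.014 to 0.27 against aged and -0.14 to 0.013 against young vehicle without single libraries, and was at 0.056 against young vehicle with the length offset. Reck with age ranged from -0.057 to 0.30. The cause was not tested.

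With the replicate number as a block, 1, 6 and 6 members were called in the 3 comparisons. The block ended both calls of Mmp9 with GB (adjusted p = 0.0562 and 0.0579) and, with age, those of Furin (0.0503), Adam15 (0.0582), Plod3 (0.0659) and Col1a1 (0.086), changed no other call of a gene named in the text and moved no count of calls by over 1.5 times. Deviations of same-numbered libraries correlated at -0.028 to 0.057 over 9 pairs. That gave no sign of pairing but cannot exclude it, since no libraries known to be paired were at hand for comparison. The Timp1 values rest on 6 to 84 counts per library, with a wide spread within each group.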

Other observations

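Cathepsins and the growth factor pathway that drives matrix genes were read in the same fit. In it 4.32% of all genes tested were higher and 4.28% lower with age. GB left 24.4% of all genes tested higher and 28.8% lower than in aged vehicle libraries. Of 8 cathepsins and related proteases of matrix turnover, 0 rose or fell with age by edgeR's adjusted p, while GB left 2 higher and 3 lower. Ctsd, the lysosomal aspartic protease, averaged 273 CPM under vehicle in aged muscle and 774 CPM with GB (log2 fold change 1.502, SE 0.08, edgeR adjusted p = 1.02e-08). Of 21 TGF-beta ligands, receptors and matrix-inducing regulators, 1 was higher with age, while GB left 3 higher and 12 lower. The gene that rose with age was Ccn1, a matricellular protein, at 0.80 on the log2 scale (SE 0.13, adjusted p = 0.00256). With GB, Tgfbr2, a receptor of TGF-beta, fell by 1.43 (SE 0.09) and Fos, an AP-1 subunit, rose by 2.81 (SE 0.59, adjusted p = 0.00607). Fos was at 57.1 CPM in young replicate 1, against 16.5 and 14.9 CPM in young replicates 2 and 3.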
